A study of Mus musculus with 29 samples.

Results

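The Src family kinases and their negative regulator *Csk* were examined in RNA-seq data of mouse pro-B cells. Wild-type pro-B cells are bone marrow progenitors that are committed to the B cell lineage and depend on the transcription factor Pax5. The study describes progenitors without Pax5 function as uncommitted, and the *Pax5* -/- cells are called pro-B cells here only after their label. The 8 members *Lyn*, *Blk*, *Fyn*, *Lck*, *Fgr*, *Yes1*, *Src* and *Csk* were selected by name, and all 8 were found among the 24732 entries of the tables aligned to mm9 and among the 25588 entries of those aligned to mm10. The mm9 tables hold 3 libraries of wild-type (*Pax5* +/+) and 2 of *Pax5* -/- pro-B cells, both sorted directly from bone marrow of C57BL/6 mice whose age is not given in the sources used here. The mm10 tables hold 3 libraries of pooled pro-B cells from C57BL/6 mice at the age of 3 weeks, labelled Pax5(+/+) Meox2-cre, which carry a Cre recombinase expressed ubiquitously from the *Meox2* locus. A supplementary sample list of the study gives these latter mice as *Pax5* +/- instead, and their label was kept here. Both kinds of cells were sorted as B220+ Kit+ cells, but the gate of the *Pax5* -/- progenitors, which carry the null allele in every cell of the mouse, also asked for Ly6D and differed in other markers from that of the wild-type cells, so that genotype and sort gate cannot be told apart.

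Src family kinases are membrane-anchored tyrosine kinases that start signalling from antigen receptors by phosphorylating the activation motifs of the receptor chains, and that also phosphorylate inhibitory receptors. Lyn, Blk and Fyn are the family members best known from B cells, Lck is the kinase bound to CD4 and CD8 in T cells, Fgr is known mainly from myeloid cells, and Src and Yes1 are widely expressed. Csk holds all of them in check by phosphorylating a tyrosine near their C-terminus, which folds the kinase into a closed form, and the phosphatase CD45, encoded by *Ptprc*, removes that phosphate.

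All values are TPM, a level corrected for gene length that sums to 1000000 in every library and holds no read number. Relative depth, taken from ratios between low values of the same gene, placed the *Pax5* -/- libraries at 0.855 and 1.54 times the depth of wild-type library 1, and the other wild-type libraries at 1.02 and 1.03 times. Levels of *Pax5* were 342, 386 and 391 TPM in the wild-type, 43.0 and 39.1 TPM in the *Pax5* -/- and 394, 376 and 397 TPM in the Meox2-Cre libraries, in the order of libraries 1 to 3 that is kept throughout. The 7 B lineage markers summed to 15330 to 17410 TPM in wild-type and 3191 to 3200 TPM in *Pax5* -/- cells, and none was at 0. No source states whether the libraries come from separate mice, so p-values measure the spread between these libraries. In bulk RNA, fewer cells of a type and less RNA per cell cannot be told apart.

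The 3 members that were higher without Pax5 are *Src*, *Fgr* and *Lck*. The 250 bases upstream of their annotated starts were taken from RefSeq (GRCm38.p6, the assembly of mm10), which held 8 starts for 6 of the 8 members, with *Lyn* and *Blk* not among them. Capitals mark the letters GCGTGAC of a Pax5 core, GGAAGT of an Ets core and TGGGAA of an Ikaros core, which were searched on both strands and of which the last can overlap the Ets core. These letters were chosen after the sequences had been read. The windows are chr4:129573642-129573891 on the minus strand for the distal *Lck* start, chr4:129558373-129558622 on the minus strand for the proximal *Lck* start, chr4:132973845-132974094 on the plus strand for *Fgr* and chr2:157424043-157424292 on the plus strand for *Src*.
Lck distal: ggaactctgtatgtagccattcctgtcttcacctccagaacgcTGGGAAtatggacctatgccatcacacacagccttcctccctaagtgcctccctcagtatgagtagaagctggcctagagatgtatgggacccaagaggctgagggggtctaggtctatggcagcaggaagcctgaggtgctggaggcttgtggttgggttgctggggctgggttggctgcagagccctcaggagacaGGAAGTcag
Lck proximal: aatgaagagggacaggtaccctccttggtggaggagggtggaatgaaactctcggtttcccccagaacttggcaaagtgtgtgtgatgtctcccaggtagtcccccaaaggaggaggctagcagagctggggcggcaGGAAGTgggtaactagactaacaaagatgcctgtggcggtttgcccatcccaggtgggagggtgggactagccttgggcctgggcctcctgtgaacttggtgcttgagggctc
Fgr: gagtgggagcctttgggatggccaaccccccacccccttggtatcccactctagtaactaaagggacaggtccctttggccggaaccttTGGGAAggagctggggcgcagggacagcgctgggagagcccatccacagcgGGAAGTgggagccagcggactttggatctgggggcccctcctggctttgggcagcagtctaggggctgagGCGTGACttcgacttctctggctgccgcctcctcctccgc
Src: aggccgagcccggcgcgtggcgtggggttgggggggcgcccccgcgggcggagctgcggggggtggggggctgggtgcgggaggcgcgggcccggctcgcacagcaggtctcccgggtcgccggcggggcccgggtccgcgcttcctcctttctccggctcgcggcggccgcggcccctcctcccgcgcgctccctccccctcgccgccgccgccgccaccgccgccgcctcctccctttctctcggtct

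The *Fgr* window held a match to each of the 3 cores, of which the Pax5 core began 40, the Ets core 110 and the Ikaros core 161 bases before the start. The distal *Lck* window held an Ets core 9 and an Ikaros core 207 bases before the start, and the proximal window held an Ets core 113 bases before it. No match was found in the windows of *Src*, *Fyn*, *Yes1* or of the 2 *Csk* starts. Among 32851 RefSeq promoter windows of the same length, 1.78% held the Pax5 core, 19.7% the Ets core and 21.6% the Ikaros core. The *Src* window was the richest of the 8 in G and C, at 82.8% against 64.4% for *Fgr*, 56.4% and 58% for *Lck* and a median of 52.4% over all windows. A match is a description of these letters only, since binding was not examined, and the TPM tables do not separate the *Lck* starts.

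In *Pax5* -/- pro-B cells, transcripts of *Src*, *Fgr* and *Lck* were higher and those of *Lyn* and, by a small margin, *Csk* were lower than in wild-type pro-B cells. *Blk* and *Fyn* did not pass the test and *Yes1* was too low to be tested. The test was limma on log2(TPM + 0.5), adjusted by Benjamini-Hochberg over the 12066 genes whose mean exceeded 1 TPM in either genotype. Of the 7 members tested, 3 were higher and 2 lower at an adjusted p below 0.05, against 15.6% of all genes tested that were higher and 21.5% that were lower. The libraries of the 2 genotypes did not overlap for 5 members, against 63.4% of all genes. Of the members, 2 rose more than 3-fold and averaged over 5 TPM in either genotype, against 2.71% of all genes, and 0 fell that far, against 3.15% of all genes. These 2, *Src* and *Fgr*, passed 5 TPM only through their *Pax5* -/- means. The median log2 fold change was 0.20 for the 7 members and -0.12 for all genes, and after rescaling by median ratios the latter was -0.003, so log2 changes of about 0.1 depend on the scaling.

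**Figure D1:**
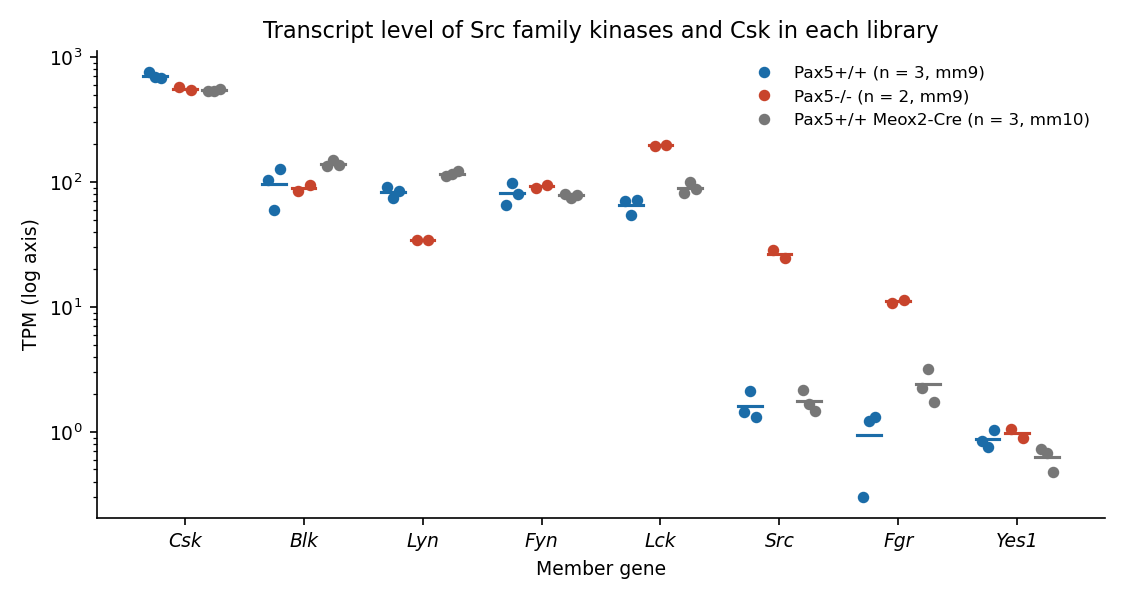
TPM (log axis) of the 8 member genes in each library, with 3 wild-type, 2 *Pax5* -/- and 3 Meox2-Cre libraries as points and group means as bars. *Src*, *Fgr* and *Lck* sit higher and *Lyn* lower in both *Pax5* -/- libraries than in any other library, and the Meox2-Cre values come from another genome build.

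*Lyn*, on chromosome 4 (mm9, chr4:3605262-3740269, plus strand), encodes the kinase that in B cells serves both the antigen receptor and its inhibitory co-receptors. Its level was 91.0, 75.1 and 84.8 TPM in wild-type and 34.4 and 34.5 TPM in *Pax5* -/- cells. Both *Pax5* -/- libraries were below every wild-type library, and the mean was 2.43-fold lower. The log2 fold change was -1.26 (SE 0.12, limma adjusted p = 0.000257). The span of *Lyn* holds 4 other GENCODE entries, and reads shared with them were not separated here.

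*Blk*, named for B lymphoid kinase (mm9, chr14:63991674-64036024, minus strand), was at 104, 59.8 and 127 TPM in wild-type and 84.2 and 94.0 TPM in *Pax5* -/- cells. The *Pax5* -/- libraries lay within the wild-type range. The log2 fold change of *Blk* was -0.06 with a 95% interval from -0.72 to 0.60 (limma adjusted p = 0.89), which leaves room for changes of either sign. *Fyn*, a kinase of T and B cells and of the brain (mm9, chr10:39088661-39285187, plus strand), was at 65.6, 97.8 and 79.8 TPM in wild-type and 90.3 and 93.9 TPM in *Pax5* -/- cells. Its ranges overlapped as well, with a log2 fold change of 0.20 and a 95% interval from -0.18 to 0.59 (limma adjusted p = 0.368).

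*Lck*, best known from T cells (mm9, chr4:129225588-129250885, minus strand), was expressed at 70.9, 54.8 and 72.2 TPM in wild-type and at 196 and 198 TPM in *Pax5* -/- cells. The lowest *Pax5* -/- library was above the highest wild-type library, which itself was well above the levels of *Src* and *Fgr*. Its log2 fold change of 1.58 (SE 0.14, limma adjusted p = 0.00018) was 2.996-fold, just short of the 3-fold threshold, and *Lck* passed the threshold in 6 of the 15 settings tried. Its entry carries a mark, IMP_OVL, that no source used here explains, and no other GENCODE gene lies in its span. Entries of other genes given here carry the same mark, among them *Ptpre*, *Sla2*, *Cd72*, *Cd247* and *Cox6a2*. The 10 T cell markers summed to 3.46 to 6.43 TPM in wild-type and 6.37 to 11.0 TPM in *Pax5* -/- cells, where *Cd3e*, *Cd8b1*, *Trac* and *Themis* were listed at 0 in both libraries, *Cd4* was at 0.368, 0.522 and 0.712 TPM against 3.97 and 5.88 TPM and *Cd6* at 0.709, 0.368 and 0.847 TPM against 2.05 and 4.05 TPM. *Cd2* was lower, at 1.11, 1.41 and 2.14 TPM against 0 and 0.215 TPM. *Trac* was lower too, at 0.613, 0.902 and 1.78 TPM in wild-type cells. NK cell markers, 6 genes, summed to 10.2 to 21.4 TPM in wild-type and 23.7 to 32.9 TPM in *Pax5* -/- cells. Of these, *Nkg7* was at 1.71, 5.35 and 5.12 TPM against 17.9 and 22.7 TPM, with *Ncr1* at 0 in the latter. In contrast, *Klrb1c* was at 2.02, 8.78 and 6.04 TPM against 1.07 and 1.25 TPM. *Prf1* was likewise lower, at 5.05, 5.26 and 3.75 TPM against 0.361 and 1.92 TPM. Markers of plasmacytoid dendritic cells, 6 genes, summed to 91.5 to 130 TPM and 149 to 223 TPM, with *Klk1* at 0 in the latter. *Bst2* made up most of that sum, at 83.0, 123 and 103 TPM against 120 and 163 TPM, where the ranges overlapped. *Siglech* was at 0.106, 0.570 and 1.12 TPM against 1.79 and 9.06 TPM. *Cox6a2* was at 5.57, 3.77 and 4.09 TPM against 20.0 and 41.3 TPM. *Pacsin1* was at 2.66, 1.38 and 1.47 TPM against 7.41 and 8.86 TPM, and *Ccr9* was below 1 TPM in every library of both genotypes. The part of these cell types in the levels of *Lck* and of the other genes that were higher was not tested.

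*Src*, the founding member of the family (mm9, chr2:157244180-157297598, plus strand), had the largest change among the members. It was at 1.43, 2.11 and 1.32 TPM in wild-type and at 28.3 and 24.9 TPM in *Pax5* -/- cells. Both *Pax5* -/- libraries were far above every wild-type library. The log2 fold change was 3.69 (SE 0.23, limma adjusted p = 4.01e-05), or 12.9-fold on the log2(TPM + 0.5) scale and 16.4-fold by the ratio of means, and 38 of the 12066 genes had a larger increase. Platelet and megakaryocyte markers, 6 genes of cells that also express *Src*, summed to 14.3 to 23.2 TPM in wild-type and 40.4 to 42.8 TPM in *Pax5* -/- cells. Of these, *Gp9* was at 7.34, 8.12 and 4.83 TPM against 28.3 and 33.9 TPM and *Itgb3* at 2.17, 2.04 and 2.73 TPM against 6.33 and 6.67 TPM, whereas *Pf4* was at 5.38, 2.11 and 10.2 TPM against 3.02 and 1.39 TPM. Their part in the *Src* level was not tested.

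*Fgr* (mm9, chr4:132530010-132557825, plus strand) was at 0.303, 1.23 and 1.32 TPM in wild-type and at 10.8 and 11.5 TPM in *Pax5* -/- cells. All wild-type libraries were low and both *Pax5* -/- libraries were high, with no overlap. With means of 0.949 TPM in wild-type and 11.1 TPM in *Pax5* -/- cells, *Fgr* passed the filter at 1 TPM only through the latter. *Fgr* had a log2 fold change of 3.10 (SE 0.38, limma adjusted p = 0.000856), or 8.55-fold on the log2(TPM + 0.5) scale and 11.7-fold by the ratio of means. The 9 myeloid markers found in the mm9 tables summed to 46.1 to 253 TPM in wild-type and 55.5 to 83.8 TPM in *Pax5* -/- cells. Of these, *Mpo* was at 11.1, 34.5 and 19.0 TPM against 37.8 and 42.1 TPM. *Elane* was lower, at 5.64, 16.5 and 12.1 TPM against 0 and 2.76 TPM. *Lyz2* and *Itgam* were also below every wild-type value in both *Pax5* -/- libraries. The part of these markers in the level of *Fgr* was not tested.

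*Yes1* (mm9, chr5:32913606-32989430, plus strand) was the least abundant member, at 0.852, 0.755 and 1.04 TPM in wild-type and 1.06 and 0.889 TPM in *Pax5* -/- cells. Its mean stayed at or below 1 TPM in both genotypes, and it was therefore left out of the test. With no filter on low values its log2 fold change was 0.10 with a 95% interval from -0.38 to 0.58 (limma adjusted p = 0.744).

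*Csk*, the inhibitory kinase (mm9, chr9:57474454-57493460, minus strand), was the most abundant member by far, at 760, 688 and 674 TPM in wild-type and 575 and 546 TPM in *Pax5* -/- cells. Both *Pax5* -/- libraries were below the wild-type libraries, by 1.26-fold on average. For *Csk* the log2 fold change was -0.33 (SE 0.10, limma adjusted p = 0.033). The direction held in all 14 alternative fits, but the adjusted p was 0.05 or more in 8 of them, with a range from 0.0313 to 0.307. Among these were the fits without wild-type library 1 (adjusted p = 0.066) or 2 (0.051) and without *Pax5* -/- library 1 (0.141) or 2 (0.231).

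**Figure D2:**
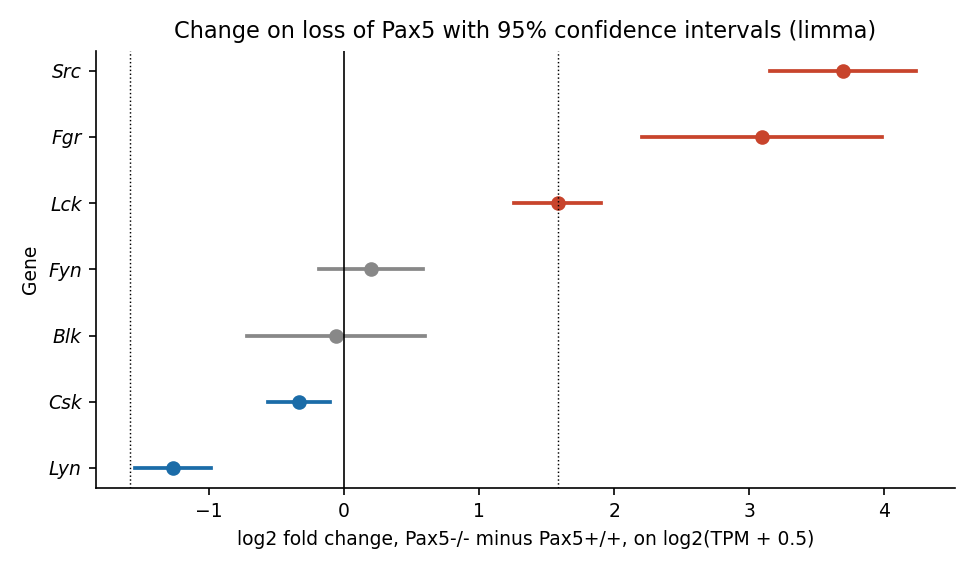
log2 fold change of 7 members between *Pax5* -/- and wild-type pro-B cells with 95% confidence intervals from limma, in red where higher, blue where lower and grey where the test was not passed. Dotted lines mark 3-fold, which *Lck* at 1.58 reaches almost exactly, whereas the intervals of *Src* and *Fgr* lie wholly beyond it. The intervals are not adjusted for the number of genes, and limma treat, which tests against 3-fold itself, kept only 1 member.

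The kinase transcripts thus differed in composition between the genotypes. The 7 Src family kinases among the members summed to 334, 291 and 367 TPM in wild-type and 445 and 458 TPM in *Pax5* -/- cells. Of this sum, *Lck* made up 18.8% to 21.2% in wild-type and 43.3% to 44.0% in *Pax5* -/- cells. *Lyn* took 23.1% to 27.2% and 7.53% to 7.74%, respectively. The ranges of *Src* were 0.36% to 0.723% in wild-type and 5.43% to 6.37% in *Pax5* -/- cells. The ratio of *Lck* to *Lyn* was 0.730 to 0.851 in wild-type and 5.69 to 5.76 in *Pax5* -/- cells. *Csk* was at 2.27, 2.36 and 1.84 times the summed level of the kinases in wild-type and at 1.29 and 1.19 times in *Pax5* -/- cells. These shares are descriptions, for which no test was run.

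**Figure D3:**
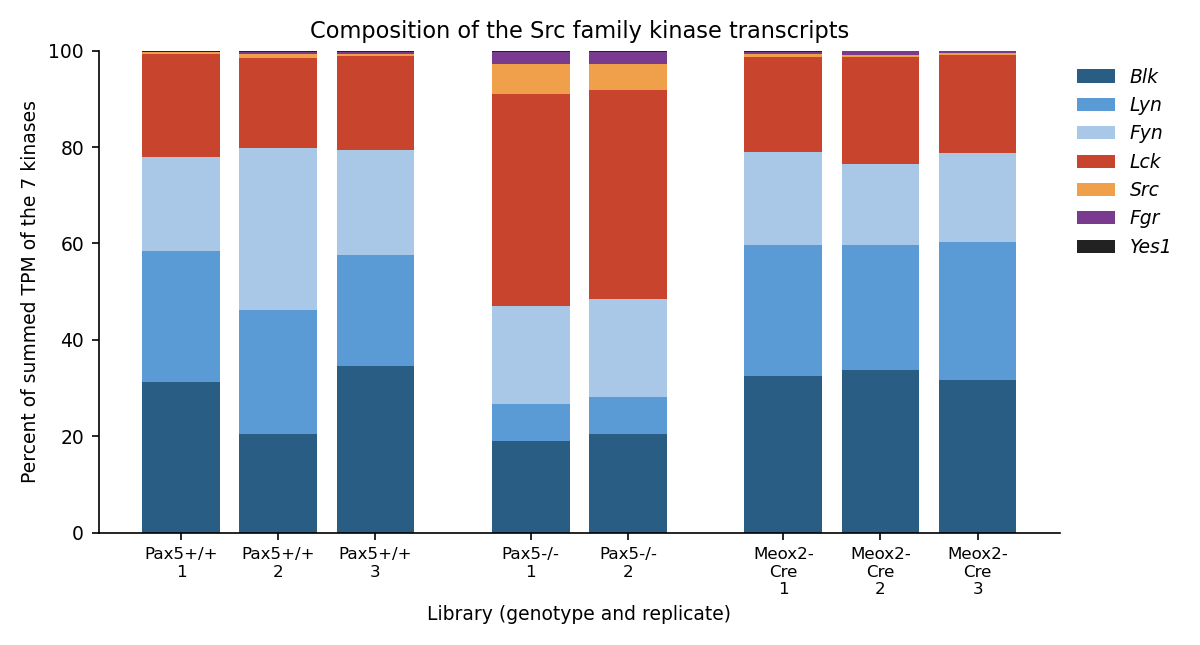
Share of each kinase in the summed TPM of the 7 Src family kinases, in percent, with 1 stacked bar per library. *Lck* takes 43.3% to 44.0% of the sum in the *Pax5* -/- libraries and 18.8% to 22.3% in the other libraries.

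The order of the levels differed accordingly. In wild-type cells *Csk* was followed by *Blk*, *Lyn*, *Fyn* and *Lck*, of which each overlapped its neighbours, and then by *Src*, *Fgr* and *Yes1*. The lowest *Src* value and the highest *Fgr* value were both 1.32 TPM, and *Fgr* and *Yes1* overlapped. In *Pax5* -/- cells the order was *Csk*, *Lck*, *Fyn*, *Blk*, *Lyn*, *Src*, *Fgr* and *Yes1*, where only *Fyn* and *Blk* overlapped as neighbours.

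The Meox2-Cre pro-B cells, which were aligned and counted in another way and are therefore given without a test, had *Lyn* at 112, 115 and 123 TPM and *Lck* at 82.2, 99.5 and 87.5 TPM. *Blk* was at 135, 150 and 136 TPM and *Fyn* at 80.3, 74.8 and 79.1 TPM. *Src* was at 2.15, 1.66 and 1.46 TPM and *Fgr* at 2.25, 3.21 and 1.73 TPM. *Yes1* was at 0.724, 0.677 and 0.478 TPM. The level of *Src* and the share of *Lck*, at 19.8% to 22.3%, overlapped those of the wild-type libraries, whereas every *Fgr* value was above the wild-type and below the *Pax5* -/- values. *Csk* was at 537, 538 and 557 TPM, or 1.21 to 1.30 times the summed kinases, which lay nearer to the *Pax5* -/- than to the wild-type values of the mm9 tables. The effect of the build on that level was not tested. The 10 myeloid markers, which here include *Ly6g* that was not found in the mm9 tables, summed to 443 to 1226 TPM in these libraries. The largest parts were *S100a9*, at 239, 568 and 171 TPM, and *S100a8*, at 167, 401 and 108 TPM.

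Among genes acting on or with these kinases, 3 lists were examined. Of the 4 related kinases, only *Matk* was tested. This gene, which encodes the Csk-homologous kinase, rose from 24.9, 25.3 and 23.6 TPM to 54.1 and 54.9 TPM (log2 fold change 1.13, SE 0.12, limma adjusted p = 0.000355). *Frk* was listed at 0 in all libraries, and *Ptk6* and *Srms* had means below 1 TPM.

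Of 20 regulators of Src family kinases, all of which were tested, 5 were higher, 4 were lower and 11 did not pass the test, against 15.6% of all genes higher and 21.5% lower, and the median log2 fold change was 0.07 against -0.12 for all genes. The phosphatase gene *Ptpre* rose from 6.06, 9.48 and 10.8 TPM to 48.4 and 43.3 TPM (log2 fold change 2.35, SE 0.24, limma adjusted p = 0.000366). *Sla2*, an adaptor that dampens antigen receptor signalling, rose from 3.38, 4.11 and 2.44 TPM to 18.4 and 21.9 TPM (log2 fold change 2.46). *Dok2*, an adaptor that recruits a Ras inhibitor, rose from 14.2, 13.9 and 11.8 TPM to 62.8 and 72.8 TPM (log2 fold change 2.31). The wild-type and *Pax5* -/- libraries of these genes were far apart, whereas the related *Sla* and *Dok1* rose by only 0.72 and 0.57 on the log2 scale and lost the call without *Pax5* -/- library 2 (limma adjusted p = 0.193 and 0.105). *Sit1*, a transmembrane adaptor of lymphocytes, fell from 207, 175 and 148 TPM to 4.44 and 3.07 TPM (log2 fold change -5.39, SE 0.19, limma adjusted p = 4.02e-06). *Ptpn12*, a phosphatase that binds Csk, fell from 18.6, 24.3 and 25.5 TPM to 6.17 and 5.10 TPM (log2 fold change -1.92). *Unc119* and *Ptprj* fell by 0.76 and 0.56 on the log2 scale, and both lost the call without either *Pax5* -/- library (limma adjusted p from 0.0805 to 0.202).

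The CD45 gene *Ptprc*, *Pag1* and *Ptpn22* did not pass the test. *Ptprc* was at 59.3, 66.7 and 70.0 TPM in wild-type and 72.1 and 74.0 TPM in *Pax5* -/- cells (log2 fold change 0.16, limma adjusted p = 0.288). *Pag1*, the membrane anchor of Csk, had a log2 fold change of 0.12 (limma adjusted p = 0.503). *Ptpn22*, a phosphatase that partners with Csk, had a log2 fold change of -0.03 (limma adjusted p = 0.955).

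Of 27 receptors, adaptors and substrates, 22 were tested, of which 3 were higher, 12 were lower and 7 did not pass the test, against the same 15.6% of all genes higher and 21.5% lower, and the median log2 fold change was -0.59 against -0.12. The lower genes included B cell receptor components and inhibitory receptors that Lyn phosphorylates. *Cd72* fell from 165, 165 and 215 TPM to 1.58 and 1.8 TPM (log2 fold change -6.37, SE 0.16, limma adjusted p = 1.4e-06). *Siglecg*, which encodes an inhibitory lectin of B cells, fell from 95.4, 98.9 and 142 TPM to 2.39 and 2.57 TPM (log2 fold change -5.22). For both inhibitory receptors, every *Pax5* -/- library was below 3 TPM. *Cd79a*, the signalling chain of the B cell receptor, had a log2 fold change of -3.00, the adhesion receptor gene *Cd44* of -2.70 and the adaptor gene *Skap1* of -2.48. *Skap1* was at 5.32, 3.74 and 3.63 TPM against 0.338 and 0.337 TPM. It thus passed the filter at 1 TPM only through its wild-type mean. Its log2 fold change was -3.29 with a pseudocount of 0.1 and -1.95 with a pseudocount of 1. *Fcgr2b*, the inhibitory Fc receptor of B cells, fell from 25.7, 18.9 and 25.9 TPM to 3.93 and 4.61 TPM (log2 fold change -2.32). The other genes of the list that were lower are *Cd22*, *Cd5*, *Zap70*, *Btk*, *Cd79b* and *Syk*. Those that did not pass the test are *Pecam1*, *Kit*, *Tec*, *Ptk2*, *Ptk2b*, *Skap2* and *Inpp5d*. The receptor gene *Pecam1* had a log2 fold change of 0.06 (limma adjusted p = 0.809). *Pirb*, another receptor gene of the list, averaged below 1 TPM in both genotypes and was not tested.

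The 3 genes of this list that were higher, a share close to that of all genes, are *Cd247*, *Cd4* and *Sh2d2a*. *Cd247*, the zeta chain of the T cell receptor complex, rose from 0.247, 0.917 and 0.372 TPM to 10.7 and 12.3 TPM (log2 fold change 3.62, SE 0.32, limma adjusted p = 0.0002). *Cd4* rose by 2.38 on the log2 scale, and *Sh2d2a*, an adaptor that binds Lck, rose from 16.4, 13.8 and 17.4 TPM to 35.7 and 36.5 TPM (log2 fold change 1.17). *Cd247* and *Cd4* exceeded 1 TPM on average only in *Pax5* -/- cells, through which they entered the test. The T cell genes *Cd3e*, *Cd28* and *Cd8a* of the same list stayed below 1 TPM on average in both genotypes and were not tested.

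**Figure D4:**
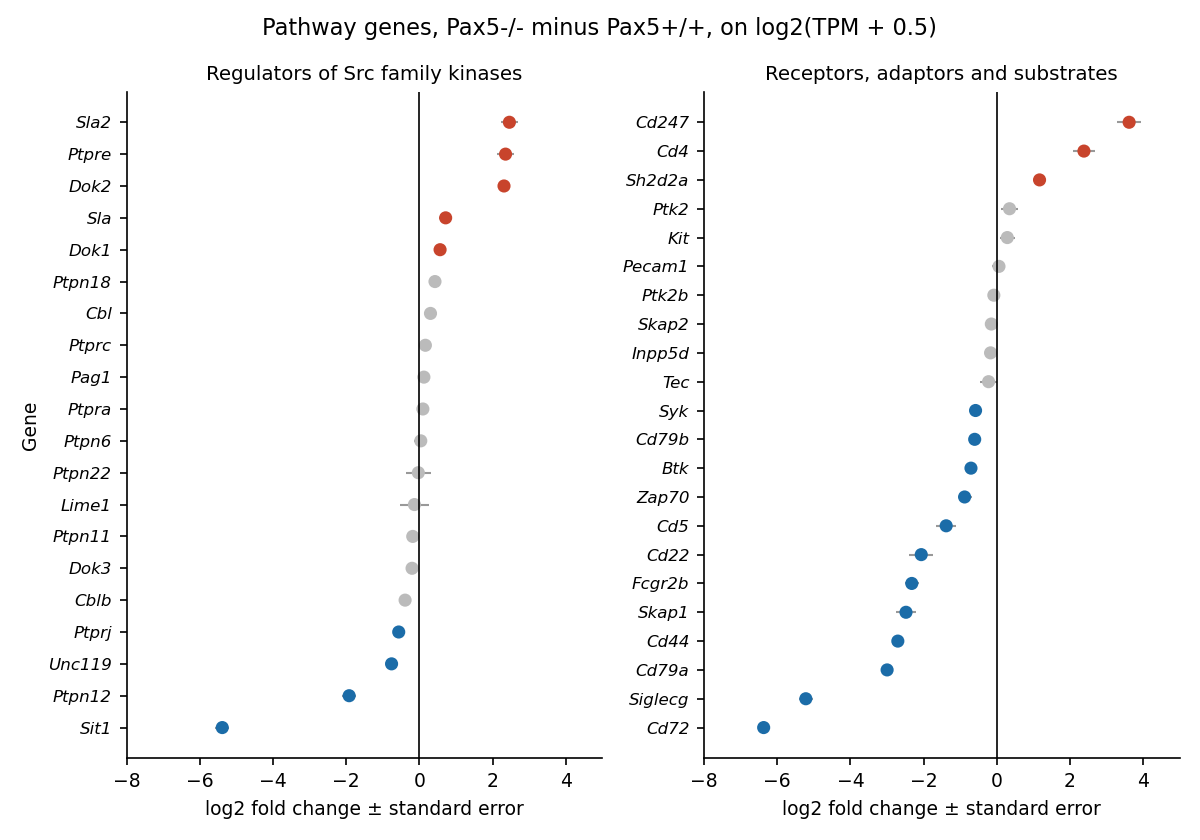
log2 fold change with standard error of the tested genes of 2 pathway lists between *Pax5* -/- and wild-type pro-B cells, in red where higher, blue where lower and grey where the test was not passed. The receptors, adaptors and substrates reach from *Cd72* at -6.37 to *Cd247* at 3.62, and the regulators from *Sit1* at -5.39 to *Sla2* at 2.46.

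The genes with the levels most like those of *Src* and *Fgr* over the 5 libraries were found by the root mean square difference of log2(TPM + 0.5). For *Src* these were *Tnfsf11* (0.11), *Dtx4* (0.24) and *Htra3* (0.35). *Tnfsf11* was at 1.47, 1.95 and 1.48 TPM in wild-type and 24.6 and 25.0 TPM in *Pax5* -/- cells. For *Fgr* these were *Cyp2j6* (0.26), *6330419J24Rik* (0.33) and *Fyb* (0.35), of which *Fyb* was at 0.659, 1.74 and 1.81 TPM in wild-type and 8.80 and 11.0 TPM in *Pax5* -/- cells.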

How the data were processed

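Pro-B cells sorted from bone marrow gave the 8 RNA-seq libraries used, and the ChIP-seq samples were not analysed here. The authors deposited TPM values that cover antigen receptor genes too. For the wild-type and *Pax5* -/- libraries they removed ribosomal RNA reads, aligned to mm9 with TopHat 1.4.1a and counted with featureCounts 1.5.0 on a modified refGene annotation, whereas reads of Meox2-Cre mice went through STAR 2.4.2a and featureCounts 1.5.0 on mm10 (tool versions from the submitters' processing notes). They called genes with a model of read counts, which TPM no longer hold, so limma 3.58.1 in R 4.3.3 (lmFit, eBayes with trend, genotype only) was run on log2(TPM + 0.5). The thresholds of 3-fold and 5 TPM follow the methods of the study and leave out immunoglobulin and T cell receptor genes. Fold changes on this scale understate those of low genes. Simulated data were used to check the fit.

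Entries were matched by the name before the marks of the tables. Named are the 8 members, *Pax5*, up to 6 genes per direction and list by size of change, *Ptprc*, *Pag1* and *Ptpn22*, and the 3 nearest genes of each member past 3-fold, while further list genes and the marker genes named singly were chosen after their values were seen. Some genes of the lists and gates are not reported here and were left out of the list counts, while the fit kept all genes. Members and lists were chosen with earlier results of these data known. Coordinates of genes are from GENCODE for mm9. The alternatives were pseudocounts of 0.1 and 1, no filter or a filter at 5 TPM, eBayes robust or without trend, quantile normalization, rescaling by median ratios or without antigen receptor genes, ratios of mean TPM, limma treat against 3-fold and leaving out each library. Tables and figures were made with Python 3.11.15, numpy 2.4.6, pandas 2.3.3 and matplotlib 3.10.9.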

Additional observations from a re-analysis of the deposited data

How the results depend on the processing

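The calls of *Src*, *Fgr*, *Lck* and *Lyn* and the 3 members higher were kept in all 14 alternative fits other than limma treat, and the ratio of mean TPM, which has no test, kept their direction. The number of members lower was 1 in place of 2, *Lyn* alone, with no filter on low values, with eBayes without trend, after quantile normalization and on rescaling by median ratios, and 1 to 2 when a library was left out. Members past 3-fold were 1 in place of 2 with limma treat, which tests against 3-fold itself. Leaving out a library gave 3 to 6 regulators higher, 2 to 4 lower and 6 to 12 receptors, adaptors and substrates lower, with the fewest of the last without *Pax5* -/- library 2. Without a *Pax5* -/- library the remaining one was assumed to vary like the wild-type libraries, and 799 or 704 of all genes were higher in place of 1885. Genes that had not passed the test changed sign. The log2 fold change of *Blk* was 0.0581 after rescaling by median ratios, 0.0314 after quantile normalization and -0.37 to 0.17 without a library. That of *Ptpn22* was 0.0825, 0.0549 and -0.39 to 0.17, and that of *Pag1* was -0.033 to 0.28 without a library. Of the 701 alternative values, 659 kept their direction and side of the threshold or stayed in range, and the mean level and share cannot move beyond 1 SD on leaving out a library. Where not stated, the cause was not tested. No paired analysis was possible because nothing in the labels links a library of either genotype to a library of the other. An exact permutation test over the 10 splits of 3 and 2 libraries cannot go below p = 0.1 and was not run. Depth in reads is unknown, which limits what can be said of *Yes1* and of *Fgr* in wild-type cells.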

Other observations

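Within the wild-type libraries, *Blk* and *Fyn* had opposite extremes, chosen here after their values were seen. Library 2 had the lowest *Blk*, at 59.8 TPM against 104 and 127 TPM, and the highest *Fyn*, at 97.8 TPM against 65.6 and 79.8 TPM. The same library had the lowest *Cd22*, at 31.4 TPM against 57.5 and 77.4 TPM, a B cell inhibitory receptor gene. None of the B lineage markers was lowest there, however. *Cd79a* was highest in library 2, at 5449 TPM against 4817 and 3670 TPM. So was *Blnk*, at 1154 TPM against 808 and 955 TPM. The 3 Meox2-Cre libraries were closer together, with *Blk* at 135 to 150 TPM and *Fyn* at 74.8 to 80.3 TPM.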
